A study of Drosophila melanogaster with 6 samples.

Results

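The retinal glia genes described here are 9 genes used as markers of the glial cells that enter the eye disc through the optic stalk, namely *gcm*, *repo*, *loco*, *moody*, *Gli*, *nrv2*, *htl*, *wrapper* and *Eaat1*. They were chosen by gene symbol from the table of raw counts, and all 9 were among the 17433 genes listed and among the 11818 genes with enough counts to test. RNA was measured in nuclei from eye discs of larvae late in the last (the third) instar. There were 3 GMR>Rh-1G69D libraries, in which *GMR-GAL4* drove both *uas-Rh-1G69D* and the tag *uas-EGFP::Msp300-KASH*, and 3 WT libraries, in which it drove the tag alone. The comparison asks how RNA levels differ when the misfolding-prone rhodopsin Rh-1G69D, an inducer of endoplasmic reticulum (ER) stress, is made in the eye. In both genotypes *GMR-GAL4*, a driver active in disc cells behind the morphogenetic furrow, also expressed the EGFP nuclear envelope tag by which nuclei were pulled down with an anti-EGFP antibody. Each library came from a pool of dissected eye-antennal discs.

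Glia of the fly eye disc are not made by the disc epithelium. They are born near the optic stalk and migrate into the eye field, where an outer layer lies on the basal surface, large subperineurial glia close a diffusion barrier with septate junctions, and wrapping glia ensheath the axons of photoreceptors on their way to the brain. *gcm* encodes the transcription factor that sets glial fate in the embryo, and *repo* the homeodomain protein that marks nearly all glia outside the midline. Several of the other markers are not restricted to glia, because septate junction proteins such as Gli and Nrv2 are also made by epithelial cells. Whether the migrating glia carried the tag was not measured in these libraries.

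Libraries held between 21773452 and 30884519 counts on genes, and ribosomal RNA genes took 7.70% to 20.5% of them. The transgene was seen as 146 to 220 CPM (counts scaled by the TMM-normalised library size) of *ninaE*, the gene of Rh1, in GMR>Rh-1G69D libraries against 3.21, 36.9 and 2.22 CPM in WT replicates 1, 2 and 3. These reads do not separate the transgene from endogenous *ninaE*. *GstD1*, a glutathione S-transferase gene, had 309 to 357 CPM in GMR>Rh-1G69D against 1.43, 0.665 and 1.47 CPM in WT replicates 1, 2 and 3, so WT replicate 2 stood apart from the other WT libraries in *ninaE* and not in *GstD1*. On the first principal component, scaled to 0 at the WT mean and 1 at the GMR>Rh-1G69D mean, WT replicate 3 lay at 0.40 and the other WT libraries at -0.21 and -0.19. Over all tested genes, 146 (1.24%) were higher and 440 (3.72%) lower in GMR>Rh-1G69D at an adjusted p under 0.05 by edgeR's quasi-likelihood test, which is 4.96% in either direction. Markers of the eye disc epithelium were present in every library, but 7 of the 10 listed were lower in GMR>Rh-1G69D. The summed level of all 10 was 4558 to 7154 CPM in GMR>Rh-1G69D against 7355 to 10234 CPM in WT. Its largest parts did not pass. These were *pros*, with 2919 to 5317 CPM in GMR>Rh-1G69D against 4508 to 5974 CPM in WT, and *elav*, with 993 to 1176 CPM against 1191 to 2059 CPM. Among 5 hemocyte markers, 4 were above every WT library, against 13.6% of all tested genes, and 1 passed the test. The 5 had 224 to 265 CPM in sum in GMR>Rh-1G69D against 117 to 128 CPM in WT.

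RNA of all 9 retinal glia genes was found in all 6 libraries, and none of the 9 genes passed the test between the genotypes over all genes (0 of 9, against 4.96% of all tested genes). Of the 9, 5 had a log2 fold change above 0 and 4 below it, from -0.81 for *Gli* to 0.73 for *wrapper*. Their median was 0.06, beside 0.04 over all tested genes. At an unadjusted p under 0.05 there were 3 members (33.3%, against 23.8% of all tested genes), namely *Gli* and *loco* with lower and *wrapper* with higher values in GMR>Rh-1G69D. DESeq2 called 1 member (*Gli*, lower) where it called 11.9% of all genes, and limma on the deposited FPKM (counts scaled by gene length and library total) called 0. The groups did not overlap for *repo*, *wrapper* and *loco*, which is 33.3% of the members, against 28.2% of all tested genes (13.6% higher and 14.6% lower). These shares are near those of all genes, so the counts do not set the members apart. In the other alternatives the share of all genes past the threshold was 4.85% with RLE normalisation, 4.71% with no filter, 7.44% with at least 10 counts in every library, 6.21% with a replicate block, and 3.41% and 3.02% with limma at a pseudocount of 1 and 0.1. It was 1.64%, 2.86% and 1.47% without GMR>Rh-1G69D replicate 1, 2 and 3, and 1.71%, 2.19% and 20.5% without WT replicate 1, 2 and 3.

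**Figure D1:**
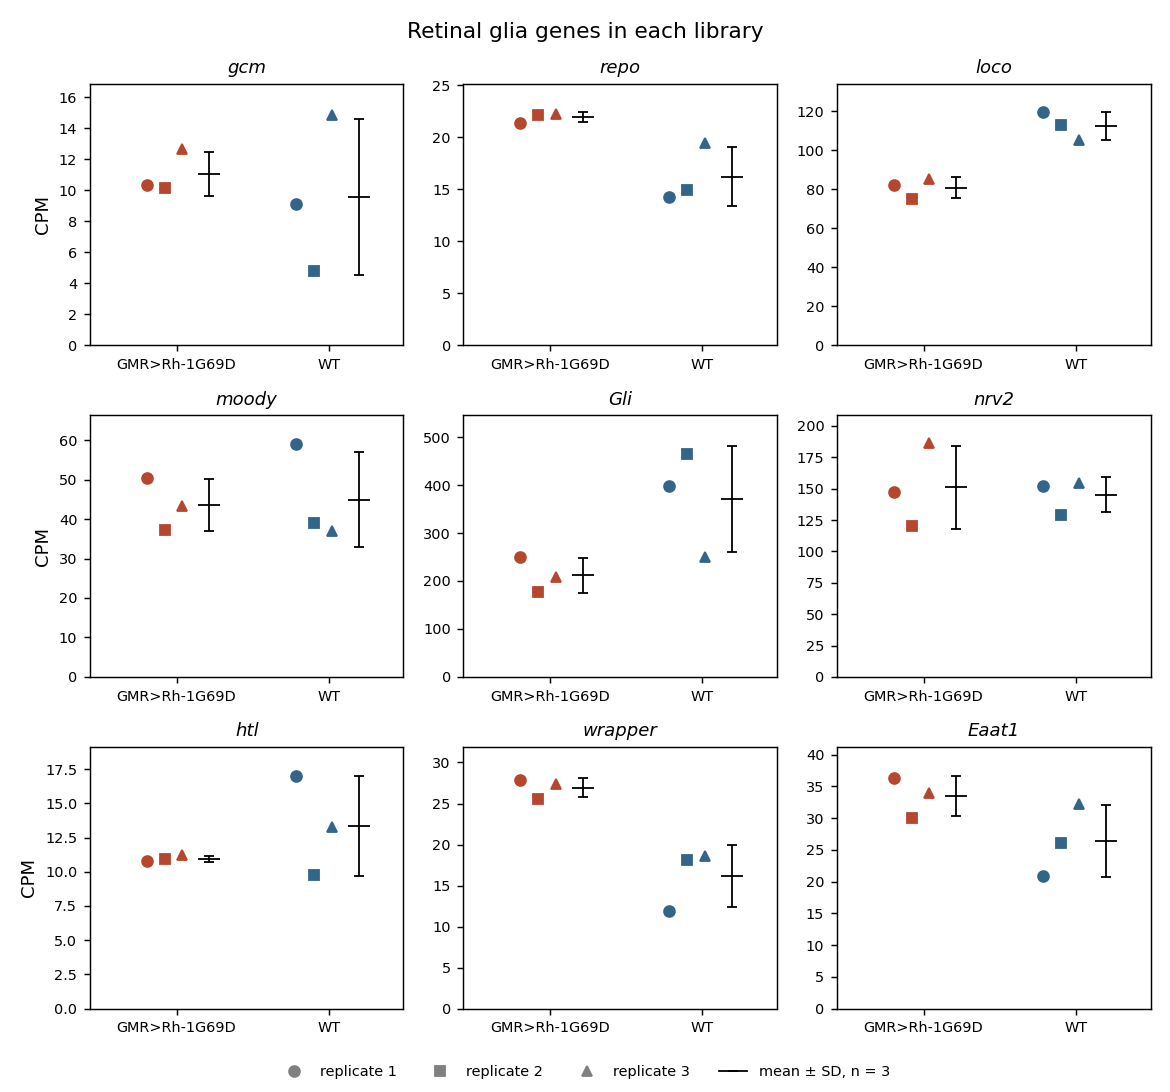
Normalised CPM (y axis from 0) of the 9 retinal glia genes in each library, with GMR>Rh-1G69D at left and WT at right in each panel. Symbols are single libraries by replicate number and black bars the mean with its SD (n = 3); *repo* and *wrapper* lie above and *loco* below all WT libraries, while the libraries of the other 6 genes overlap.

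Of the fate genes, *repo* had somewhat higher values in GMR>Rh-1G69D and *gcm* overlapped, and neither passed the test. In the dm6 build *repo* spans 18236192 to 18239602 of chromosome 3R (plus strand), and 183 of its 2996 exon bases are shared with *CG7156* on the opposite strand. *repo* had 562, 505 and 519 counts in GMR>Rh-1G69D libraries, against 279, 493 and 569 counts in WT libraries. Scaled for depth this was 21.4, 22.1 and 22.3 CPM in GMR>Rh-1G69D, against 14.2, 14.9 and 19.4 CPM in WT. The GMR>Rh-1G69D libraries were close together and all above WT, with WT replicate 3 the nearest to them. *repo* averaged 21.9 ± 0.487 CPM in GMR>Rh-1G69D and 16.2 ± 2.84 CPM in WT (SD, n = 3 each). This gave a log2 fold change of 0.44 (95% interval -0.13 to 1.00, SE 0.26, edgeR's adjusted p = 0.326), a 1.35-fold difference that did not pass. Its interval reaches from 0.916-fold to 2.00-fold. In bulk nuclei, fewer cells of a type and less RNA per cell cannot be told apart.

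*gcm*, which acts upstream of *repo* in the embryo, spans 9579498 to 9581745 of chromosome 2L (minus strand) and shares 128 exon bases with *CG31709* on the same strand. It had 10.3, 10.1 and 12.7 CPM in GMR>Rh-1G69D, against 9.11, 4.78 and 14.8 CPM in WT. The lowest and the highest library were both WT, and the GMR>Rh-1G69D libraries fell between them. The log2 fold change was 0.21 ± 0.40 (SE, edgeR's adjusted p = 0.787), with an interval from -0.67 to 1.08, or up to 2.12-fold higher. Without WT replicate 2, its lowest library, the value was -0.11. The paralogue *gcm2*, which lies 26816 bases away and shares part of the role of *gcm*, had 3.65 to 4.91 CPM in GMR>Rh-1G69D against 1.93 to 5.87 CPM in WT, and its log2 fold change was 0.07.

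Of the 4 barrier genes, *Gli* and *loco* had the lowest fold changes among the members and *moody* and *nrv2* were near 0, and none of them passed the test. *Gli* encodes Gliotactin, a transmembrane protein of the corners where 3 cells meet in epithelia and in barrier glia, and spans 15756002 to 15762758 of chromosome 2L (minus strand). It had 6567, 4033 and 4856 counts in GMR>Rh-1G69D libraries, against 7801, 15365 and 7293 counts in WT libraries. As CPM this was 249.7, 177 and 208 in GMR>Rh-1G69D, against 397, 465 and 249.2 in WT. WT replicate 3 stood with the GMR>Rh-1G69D libraries, just under the highest of them, so the groups overlapped at that point. *Gli* averaged 212 ± 36.6 CPM in GMR>Rh-1G69D and 370 ± 110 CPM in WT (SD, n = 3 each). The fitted difference, GMR>Rh-1G69D over WT, was -0.81 on the log2 scale (95% interval -1.33 to -0.29, SE 0.24, edgeR's adjusted p = 0.0733), and by p *Gli* ranked 848 of 11818 genes. Its call depended on the fit, since the adjusted p was 0.0166 with DESeq2, 0.0455 when only genes with at least 10 counts in every library were tested, and 0.00466 without WT replicate 3. Over the 13 alternatives it ranged from 0.00466 to 0.286, and *Gli* passed in 3. Without WT replicate 3, 20.5% of all genes passed as well. Of the epithelial markers given above, 7 of 10 were also lower in GMR>Rh-1G69D, and their part in the level of *Gli* was not tested.

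*loco* encodes a regulator of G protein signalling that acts with the receptor Moody in barrier glia. It spans 22619968 to 22639387 of chromosome 3R (minus strand), and 1032 of its 7671 exon bases are shared with the antisense RNA *asRNA:CR43474*. The strand setting of the counting and its handling of reads on shared bases are not given in the sources used here. How reads from these bases were counted is therefore not known for *loco*, nor for *repo* and *CG7156*. *loco* had 82.2, 74.9 and 85.0 CPM in GMR>Rh-1G69D, against 119, 113 and 105 CPM in WT. The genotypes did not overlap, and the spread within each was small. *loco* averaged 80.7 ± 5.24 CPM in GMR>Rh-1G69D and 112 ± 7.23 CPM in WT (SD, n = 3 each). On the log2 scale GMR>Rh-1G69D stood at -0.48 relative to WT (95% interval -0.87 to -0.09, SE 0.18, edgeR's adjusted p = 0.137). It passed in 1 of 13 alternatives, without WT replicate 3 (adjusted p = 0.0494), over a range of 0.0494 to 0.342.

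*moody*, the gene of the G protein-coupled receptor itself, spans 2044292 to 2050120 of chromosome X (minus strand) and shares no exon with another gene. It had 50.3, 37.2 and 43.3 CPM in GMR>Rh-1G69D, against 58.9, 39.0 and 36.9 CPM in WT. The ranges lay over each other, with replicate 1 the highest in each genotype. The log2 fold change was -0.04 ± 0.24 (SE, edgeR's adjusted p = 0.933), with an interval of -0.57 to 0.49, or 0.673-fold to 1.40-fold. The sign of this value turned in 4 of 13 alternatives.

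*nrv2*, which encodes a beta subunit of the sodium-potassium pump found at septate junctions, spans 6789770 to 6798862 of chromosome 2L (minus strand). It had 147, 120 and 186 CPM in GMR>Rh-1G69D, against 152, 129 and 154 CPM in WT. The WT libraries sat inside the GMR>Rh-1G69D range, and *nrv2* was the only member with a clearly wider spread in GMR>Rh-1G69D (coefficient of variation 21.8% against 9.64% in WT). This gave a log2 fold change of 0.06 (95% interval -0.37 to 0.49, SE 0.20, edgeR's adjusted p = 0.881). *nrv1*, its neighbour 2908 bases away with no gene between them, had a log2 fold change of -0.26 and did not pass either.

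**Figure D2:**
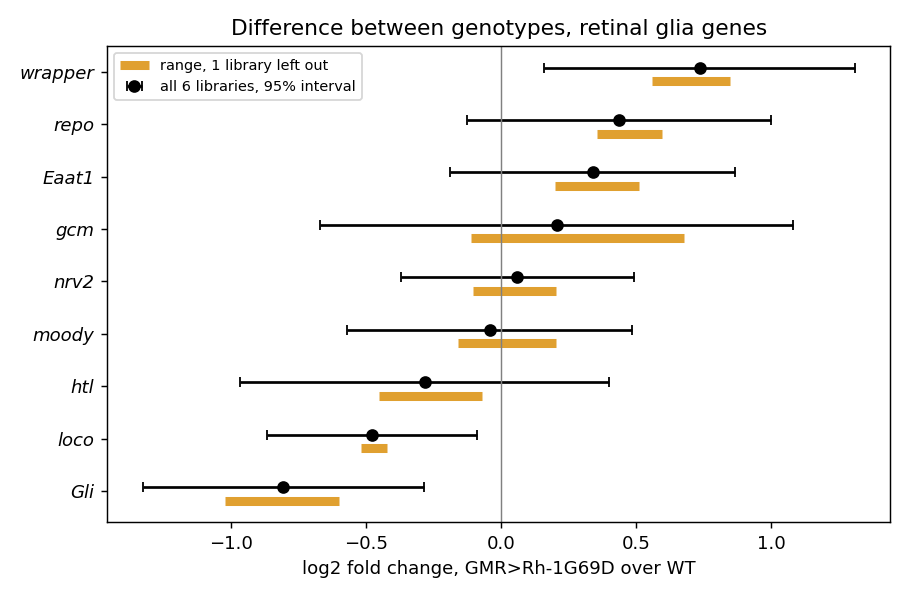
Log2 fold change of GMR>Rh-1G69D over WT (x axis) for each retinal glia gene, with black points and bars for the edgeR estimate and its 95% interval over all 6 libraries and orange bars for the range when 1 library was left out. Intervals of *Gli*, *loco* and *wrapper* leave out 0, and the orange bars of *gcm*, *nrv2* and *moody* cross it.

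Of the genes of axon-associated glia, *wrapper* lay above WT in every GMR>Rh-1G69D library, *Eaat1* and *htl* overlapped, and none of the 3 passed the test. *wrapper* encodes an immunoglobulin-family surface protein by which glia hold on to axons, and spans 22379637 to 22382675 of chromosome 2R (plus strand). It had 734, 584 and 637 counts in GMR>Rh-1G69D libraries, against 233, 598 and 544 counts in WT libraries. As CPM this was 27.9, 25.6 and 27.3 in GMR>Rh-1G69D, against 11.9, 18.1 and 18.6 in WT. All GMR>Rh-1G69D libraries were above all WT libraries, of which replicate 1 was the lowest. *wrapper* averaged 26.9 ± 1.21 CPM in GMR>Rh-1G69D and 16.2 ± 3.75 CPM in WT (SD, n = 3 each). The fitted difference, GMR>Rh-1G69D over WT, was 0.73 on the log2 scale (95% interval 0.16 to 1.31, SE 0.27, edgeR's adjusted p = 0.125), a 1.66-fold difference. It was positive in all 13 alternatives and passed in 0 of them, with an adjusted p from 0.0508 to 0.337.

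*Eaat1*, the gene of a glutamate transporter by which glia clear the transmitter from around neurons, spans 9333567 to 9341925 of chromosome 2L (plus strand). It had 36.4, 30.1 and 34.0 CPM in GMR>Rh-1G69D, against 21.0, 26.1 and 32.3 CPM in WT. WT replicate 3 was inside the GMR>Rh-1G69D range and the other WT libraries below it. On the log2 scale GMR>Rh-1G69D stood at 0.34 relative to WT (95% interval -0.19 to 0.87, SE 0.24, edgeR's adjusted p = 0.420).

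*htl* encodes Heartless, the fibroblast growth factor (FGF) receptor of glia and mesoderm, and spans 18045216 to 18052984 of chromosome 3R (minus strand). It had 10.8, 10.9 and 11.2 CPM in GMR>Rh-1G69D, against 17.0, 9.77 and 13.3 CPM in WT. The GMR>Rh-1G69D libraries were nearly equal and lay within the WT range. This gave a log2 fold change of -0.28 (95% interval -0.97 to 0.40, SE 0.32, edgeR's adjusted p = 0.613).

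The spread of the members was mostly on the side of WT. The coefficient of variation of CPM was larger in WT for 7 of the 9 genes, as it was for 62.7% of all tested genes. It was 12.8% in GMR>Rh-1G69D against 52.7% in WT for *gcm*, and 2.06% in GMR>Rh-1G69D against 27.1% in WT for *htl*. WT replicate 3 had the highest WT level of *gcm*, *repo*, *nrv2*, *wrapper* and *Eaat1* and the lowest of *loco*, *moody* and *Gli*.

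Levels were compared between genes only per length, as the deposited FPKM. By the mean of the 6 libraries the order was *Gli* (65.1 FPKM), *nrv2* (41.5), *loco* (12.5), *moody* (11.2), *wrapper* (11.0), *Eaat1* (9.61), *repo* (6.40), *gcm* (4.71) and *htl* (2.93). *nrv2* lay above *loco* in every library, while every other pair of neighbours in this order overlapped in FPKM. The highest mean was 22.2 times the lowest. *Gli* was above 88.9% of tested genes in GMR>Rh-1G69D and above 94.9% in WT, whereas *repo* was above 45.7% in GMR>Rh-1G69D and 38.0% in WT, and *htl* above 25.9% in GMR>Rh-1G69D and 27.0% in WT. *Gli* and *nrv2*, which epithelia also express, had the highest means. The means of *loco*, *moody*, *wrapper* and *Eaat1* were above that of *repo* as well. The part of epithelial cells in these levels was not tested. *wrapper* was in place 3 of the order in GMR>Rh-1G69D and in place 6 in WT, and *loco* in place 6 in GMR>Rh-1G69D and in place 3 in WT.

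**Figure D3:**
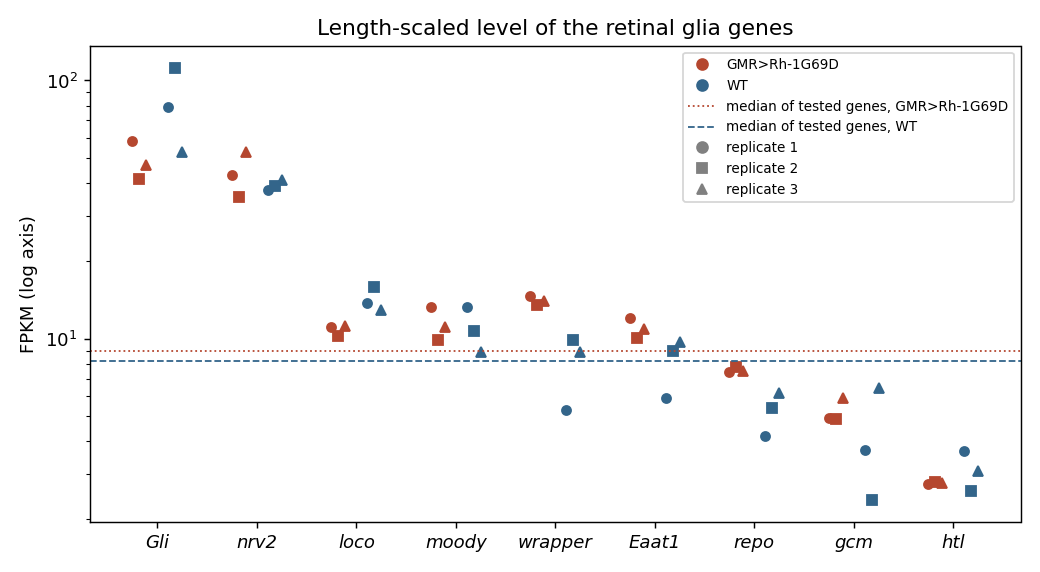
Deposited FPKM (log y axis) of the 9 genes in each library, ordered by the mean of all libraries, with GMR>Rh-1G69D to the left of WT for each gene. Dotted and dashed lines mark the median of tested genes (8.93 FPKM in GMR>Rh-1G69D and 8.19 FPKM in WT); *Gli* and *nrv2* lie far above it and *repo*, *gcm* and *htl* below it.

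Set against *repo* within the same library, a measure that no scaling of the library can change, *Gli* was at 7.84, 5.36 and 6.27 times the FPKM of *repo* in GMR>Rh-1G69D, against 18.7, 20.9 and 8.60 times in WT. *loco* was at 1.50, 1.32 and 1.49 times *repo* in GMR>Rh-1G69D, against 3.29, 2.95 and 2.11 times in WT. *htl* was at 0.369, 0.361 and 0.368 times *repo* in GMR>Rh-1G69D, against 0.876, 0.480 and 0.499 times in WT. In these 3 of 8 members the ratio was lower in every GMR>Rh-1G69D library than in any WT library, as it was for 28.6% of all tested genes, while it was higher without overlap in 0 of 8 (4.39% of all tested genes, and 33.0% in either direction). The divisor *repo* was itself above every WT library in GMR>Rh-1G69D, which lowers such ratios, and the CPM of *htl* and *Gli* overlapped between the genotypes. The ratio of *Eaat1* to *repo* was 1.30 to 1.63 in GMR>Rh-1G69D and 1.41 to 1.67 in WT, and that of *wrapper* was 1.75 to 1.98 in GMR>Rh-1G69D and 1.27 to 1.84 in WT. Both overlapped between the genotypes.

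The members also differed in how alike their profiles were. Each gene's log2 CPM was centred on its mean over the 6 libraries, and genes were compared by the root mean square difference. *repo* and *Eaat1* were the closest pair of members (0.127), followed by *repo* and *wrapper* (0.226) and *wrapper* and *Eaat1* (0.227), and *gcm* and *Gli* were the farthest apart (0.933). Among the 9817 other genes compared, all above a floor of 1 on the mean log2 CPM, the 5 closest to *repo* were *CanB*, *Cp1*, *spag*, *Rcd5* and *l(1)G0334*, at 0.0486 to 0.0541. *CanB* encodes a regulatory subunit of calcineurin and *Cp1* a lysosomal cysteine protease, neither of them restricted to glia. They had log2 fold changes of 0.41 and 0.39, and neither passed the threshold (adjusted p = 0.246 and 0.209 by edgeR). The measure was taken over both genotypes together and is given as a description.

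The sum of the 9 genes was 636, 508 and 630 CPM in GMR>Rh-1G69D, against 801, 819 and 644 CPM in WT. Most of this gap was *Gli*, which made up 33.1% to 39.2% of the sum in GMR>Rh-1G69D and 38.7% to 56.7% in WT. Without *Gli* the sum was 387, 331 and 422 CPM in GMR>Rh-1G69D, against 404, 354 and 395 CPM in WT, and the genotypes overlapped.

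Of 13 further glial genes, 0 passed edgeR's test, and the median log2 fold change was 0.07. At an unadjusted p under 0.05 there were 5 of the 13, against 23.8% of all tested genes. Of these, *Gat*, *drpr*, *unc-5* and *e* had lower and *Cyp4g15* higher values in GMR>Rh-1G69D. DESeq2 called 1 of the 13, *Gat*, the gene of a GABA transporter. It had 19.1 to 19.9 CPM in GMR>Rh-1G69D against 17.9 to 68.0 CPM in WT (edgeR's log2 fold change -1.05). *Gat* is named because of that call and also passed edgeR's test without WT replicate 3. The most abundant were *Gs2*, a glutamine synthetase of glia (log2 fold change 0.37), *drpr*, the engulfment receptor Draper (-0.52), and *unc-5*, a netrin receptor (-0.44). *drpr* had 107 to 137 CPM in GMR>Rh-1G69D against 142 to 198 CPM in WT, and *unc-5* 94.2 to 123 CPM against 138 to 163 CPM, without overlap. Over all tested genes, 14.6% lay below WT without overlap and 13.6% above it. Neither *drpr* nor *unc-5* passed (adjusted p = 0.131 and 0.173 by edgeR), and *drpr* passed without WT replicate 3 (0.0215). The ends of the range were *e* (-1.25) and *Cyp4g15* (1.11), and neither passed. *Cyp4g15* was above WT without overlap, with 8.33 to 17.2 CPM in GMR>Rh-1G69D against 3.92 to 7.98 CPM in WT. Both *e* and *Cyp4g15* were named after their values were seen.

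Septate junctions, the belts that seal both epithelia and barrier glia, were the setting of *Gli* and *nrv2*. Of 15 other septate junction genes, 2 passed as lower and 0 as higher, against 3.72% and 1.24% of all tested genes. A log2 fold change below 0 was found for 10, against 5615 of the 11818 tested genes, and the median was -0.26. Without overlap, 7 lay below WT and 1 above it, against 14.6% and 13.6% of all tested genes. An unadjusted p under 0.05 was found for 6, against 23.8%. *Mcr*, the gene of a protein of the junction, fell to 430, 319 and 391 CPM in GMR>Rh-1G69D, against 870, 790 and 737 CPM in WT. Its log2 fold change was -1.07 ± 0.20 (SE, edgeR's adjusted p = 0.0106), and it passed in 11 of 13 alternatives, the exceptions being without GMR>Rh-1G69D replicate 2 (0.0605) and without GMR>Rh-1G69D replicate 3 (0.0735). *Nrg*, the adhesion protein Neuroglian, fell to 425, 420 and 385 CPM in GMR>Rh-1G69D, against 955, 703 and 586 CPM in WT (log2 fold change -0.87, adjusted p = 0.0421 by edgeR). *Nrg* was past the threshold in 6 of 13 alternatives, and leaving out any library other than WT replicate 3 ended its call (adjusted p from 0.110 to 0.197). *Cont* (-0.71) and *Atpalpha* (-0.79), the alpha subunit that pairs with Nrv2, were below WT in every library and did not pass edgeR's test with all 6 libraries (both passed with DESeq2 and without WT replicate 3), and *Lac* (-0.09) overlapped. *Gli* thus had a value within the range of this list, which ran from -1.07 to 0.38.

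The list for the Moody pathway, 4 G protein subunit genes and *Pka-C1*, the gene of a catalytic subunit of protein kinase A, gave 0 of 5 past the threshold, with 1 (*Pka-C1*) at an unadjusted p under 0.05, 0 with DESeq2 and a median log2 fold change of -0.16. *Ggamma1* (0.27), *Gbeta13F* (-0.31) and *Pka-C1* (-0.50) were the most abundant of them.

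Both known ligand genes of Htl were lower in GMR>Rh-1G69D. Thisbe and Pyramus, encoded by the neighbouring genes *ths* and *pyr* on chromosome 2R, bind Heartless, and in the developing fly eye this pathway is known to act in the growth, migration and axon wrapping of glia. *ths*, from 11756817 to 11814424, had 53.5, 88.5 and 60.8 CPM in GMR>Rh-1G69D, against 541, 255 and 238 CPM in WT. Every GMR>Rh-1G69D library was far below every WT library, and WT replicate 1 was well above the others of its genotype. *ths* fell to 67.6 ± 18.4 CPM in GMR>Rh-1G69D, against 345 ± 170 CPM in WT (SD, n = 3 each), with a log2 fold change of -2.35 ± 0.32 (SE, 95% interval -3.04 to -1.66, edgeR's adjusted p = 0.00201). It was 5.10-fold lower and passed in 13 of 13 alternatives, with values from -2.59 to -1.87.

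*pyr*, from 11712263 to 11726345, had 43.9, 44.5 and 36.1 CPM in GMR>Rh-1G69D, against 136, 119 and 85.4 CPM in WT. It fell to 41.5 ± 4.70 CPM in GMR>Rh-1G69D, against 113 ± 25.6 CPM in WT (SD, n = 3 each), with a log2 fold change of -1.45 ± 0.22 (SE, 95% interval -1.93 to -0.97, edgeR's adjusted p = 0.00366). It was 2.73-fold lower and also passed in 13 of 13 alternatives. The receptor *htl* and *stumps*, the gene of the adaptor that links FGF receptors to Ras signalling, did not pass. *stumps* had 42.9, 45.0 and 49.5 CPM in GMR>Rh-1G69D, against 45.5, 35.9 and 48.8 CPM in WT, with a log2 fold change of 0.08 and an interval of -0.39 to 0.54.

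The other FGF ligand, Branchless, signals through the receptor Breathless. *bnl* had 47.8, 56.1 and 63.6 CPM in GMR>Rh-1G69D, against 38.6, 23.8 and 23.2 CPM in WT. It rose to 55.9 ± 7.89 CPM in GMR>Rh-1G69D, against 28.5 ± 8.72 CPM in WT (SD, n = 3 each), with a log2 fold change of 0.97 ± 0.25 (SE, edgeR's adjusted p = 0.0478). This call was at the threshold. It held in 6 of 13 alternatives and was lost with RLE normalisation (0.0599), with both limma fits, without any 1 of the GMR>Rh-1G69D libraries and without WT replicate 2, over a range of 0.0140 to 0.194. *btl* was scarce, with 2.36 to 2.88 CPM in GMR>Rh-1G69D against 2.90 to 5.98 CPM in WT.

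**Figure D4:**
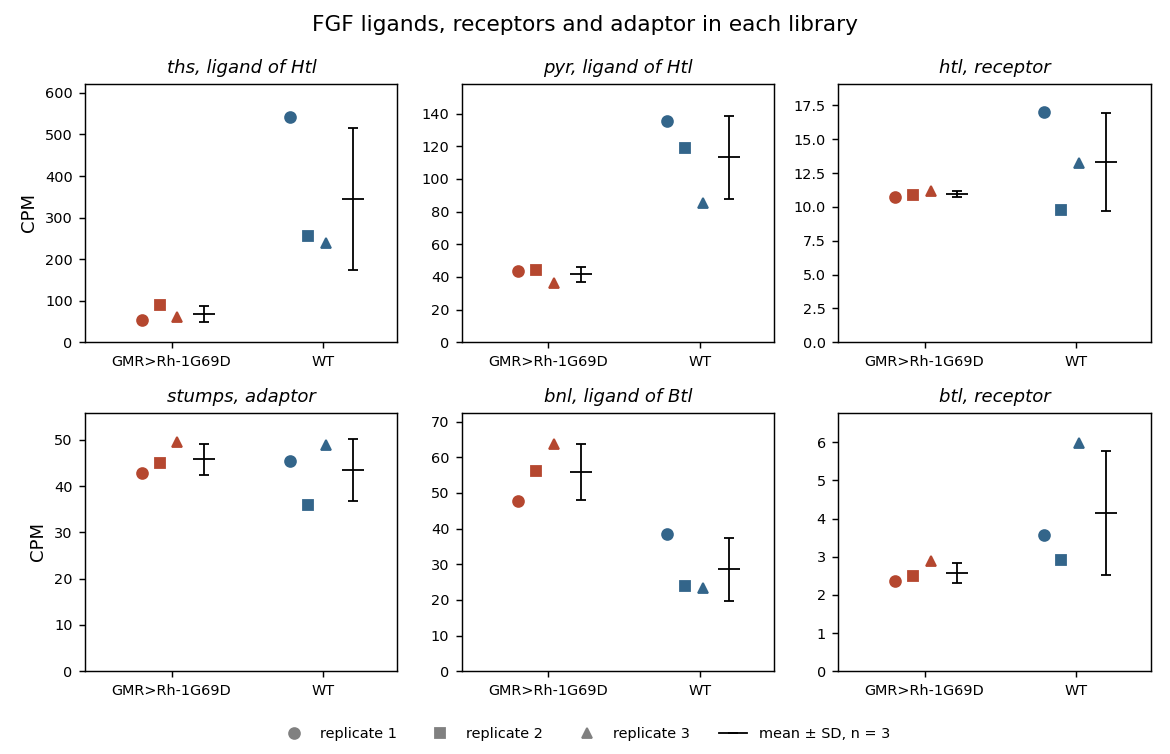
CPM (y axis from 0) of the FGF ligand genes *ths*, *pyr* and *bnl*, the receptor genes *htl* and *btl* and the adaptor gene *stumps* in each library, with GMR>Rh-1G69D at left and WT at right. Symbols are libraries and black bars the mean with its SD (n = 3); *ths* and *pyr*, the ligand genes of Htl, are lower in all GMR>Rh-1G69D libraries, *bnl* is higher, and *htl* and *stumps* overlap.

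In the whole FGF list, 2 of 9 genes passed as lower and 1 as higher, against 3.72% and 1.24% of all tested genes. Without overlap, 5 lay below WT and 1 above it, against 14.6% and 13.6% of all tested genes. An unadjusted p under 0.05 was found for 7, against 23.8%. Downstream were *sty* (the antagonist Sprouty, log2 fold change -0.71), *rl* (the mitogen-activated kinase, -0.56), *Ras85D* (0.54) and *csw* (the phosphatase Corkscrew, -0.66). They did not pass edgeR's test with all 6 libraries and passed without WT replicate 3, where 20.5% of all genes passed. *csw* also passed with DESeq2, which called 11.9% of all genes. Genes of the eye disc epithelium moved in the same direction as *ths* and *pyr*, as *gl* (-1.67), *chp* (-3.20), *sev* (-2.27), *lz* (-2.01), *so* (-1.71), *eya* (-1.31) and *ro* (-1.26) were all lower. The most abundant markers of that list, *pros* (-0.46) and *elav* (-0.59), did not pass, and neither did *ey* (-0.20), which overlapped between the genotypes. The part of eye disc epithelium cells in the fall of the ligand genes was not tested.

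Markers of other cells in a disc preparation moved in different directions. Among the hemocyte markers, *Hml*, the gene of hemolectin, rose to 146, 150 and 127 CPM in GMR>Rh-1G69D, against 55.7, 60.6 and 58.4 CPM in WT (log2 fold change 1.27, adjusted p = 0.00263 by edgeR). *srp* (0.71), *Pxn* (0.79) and *He* (1.13) were above WT in every library without passing, and *NimC1* was at 0.00. *gcm* is also known from hemocytes, and the part of these cells in the level of *gcm* was not tested. Brain and mature neuron markers had a median of 0.05, with 5 of 8 above 0 and 1 of 8 passing as lower (*brp*, -1.85). The synaptic vesicle genes *Syt1* (-0.99) and *nSyb* (-0.48) were below WT in every library without passing. In the other direction, *wor* (0.78) was above WT in every library without passing (adjusted p = 0.0744 by edgeR). *dpn* (0.33), *ase* (0.23), *VGlut* (0.08) and *ChAT* (0.02) overlapped. Mesoderm and muscle markers had 1 of 4 tested higher (*Mhc*, 1.77) and a median of 0.62. *twi* was at 1.30, with 2.15 to 15.7 CPM in GMR>Rh-1G69D against 1.42 to 4.02 CPM in WT, and did not pass. *sns* was at -0.10 and *Mef2* at -0.06. The 3 trachea markers, *verm* (-0.32), *serp* (-0.40) and *trh* (0.68), did not pass edgeR's test, and 2 of them had an unadjusted p under 0.05.

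**Figure D5:**
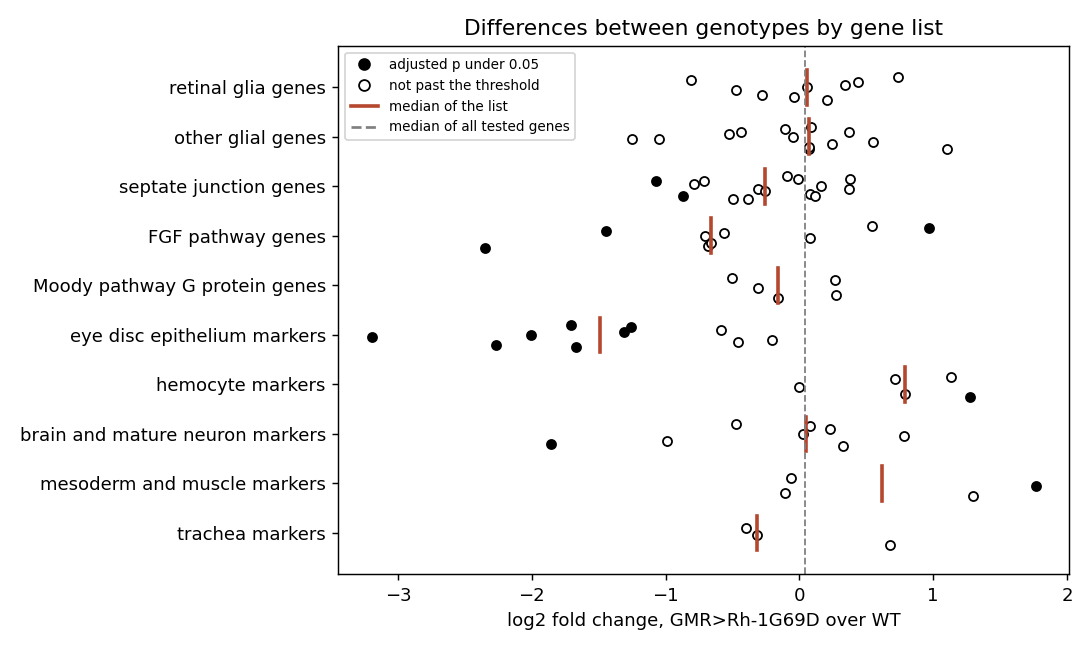
Log2 fold change of GMR>Rh-1G69D over WT (x axis) of each tested gene by list (y axis), filled where the adjusted p was under 0.05. Red bars are list medians and the dashed line the median of all tested genes (0.04); the retinal glia and other glial genes have no filled point and medians of 0.06 and 0.07, the eye disc epithelium markers a median of -1.49 and the hemocyte markers a median of 0.79.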

How the data were processed

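Alignment by the authors used STAR (2.6.1d) and the dm6 genome, and featureCounts (Subread 1.6.3) gave counts for each gene. The raw counts were deposited without normalisation, and FPKM were deposited as the same counts scaled by gene length and library total. The deposited normalised counts, which equal the raw counts divided by 1 factor per library, were not used. Annotation release and strand setting are not given in the sources used here. Columns were assigned to samples by genotype and replicate number in the titles.

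The fit was made on the counts with edgeR 4.0.16 under R 4.3.3 (filterByExpr, TMM, quasi-likelihood F test, genotype as the only term), with p-values adjusted by the Benjamini-Hochberg method over 11818 genes and a threshold of 0.05. Intervals were made from the fold change and its F statistic. The 13 alternatives were DESeq2 1.42.0, RLE normalisation, no filter, at least 10 counts in every library, a replicate block, limma 3.58.1 on log2(FPKM + 1) and log2(FPKM + 0.1), and each library left out in turn. Coordinates are from the Ensembl annotation of BDGP6 (dm6), to which all 82 listed genes were matched by symbol. The merged exon length of each of the 9 genes was within 1 base of the length that the deposited FPKM imply.

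All 9 members were named. Of every other list, genes past the threshold and the 3 with the highest FPKM were named. *csw* and *Gat* were added after their calls, *gcm2*, *nrv1*, *stumps* and *btl* as relatives or partners of members, and *e* and *Cyp4g15* as ends of a range. *srp*, *NimC1*, *wor*, *dpn*, *ase*, *VGlut*, *ChAT*, *twi* and *ey* were added to complete the tested genes of their lists. Members and lists were chosen with earlier results of these data known. The fit was also run on counts simulated with its own dispersions and with larger changes than those of the members. That run does not cover smaller differences or an outlying library, and nothing is drawn from it. Libraries were separate pools of larvae; p-values cover the spread between these pools. Figures were drawn with matplotlib.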

Additional observations from a re-analysis of the deposited data

How the results depend on the processing

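The number of all genes past the threshold was 586 in edgeR's test, 1406 with DESeq2, 357 with limma on log2(FPKM + 0.1) (147 higher and 210 lower, a more even split than 146 and 440), 403 with limma on log2(FPKM + 1) (170 higher and 233 lower), and 181 to 2504 when 1 library was left out, the highest without WT replicate 3 (1305 higher and 1199 lower). The number of retinal glia genes past it was 0, against 1 with DESeq2, 1 with at least 10 counts in every library and 0 to 2 with 1 library left out. Among the further glial, septate junction, FGF and G protein genes it was 5, against 9 with DESeq2, 3 with each limma fit and 2 to 14 with 1 library left out. The median log2 fold change of the retinal glia genes, 0.06 with all libraries, ran from -0.11 (without WT replicate 2) to 0.20 with 1 library left out. Directions turned for *gcm* without WT replicate 2 (-0.11, in a range up to 0.68 with 1 library left out), for *moody* with limma (0.070 and 0.064 with a pseudocount of 0.1 and 1) and without GMR>Rh-1G69D replicate 2 (0.06) or WT replicate 1 (0.20, in a range from -0.16), for *nrv2* without GMR>Rh-1G69D replicate 3 (-0.10) and without WT replicate 2 (-0.0096), and for *Lac* with limma (0.0027 and 0.0026); the causes were not tested. FPKM carry no TMM scaling, and the median of all genes was 0.13 and 0.10 there. Same-numbered libraries came from different pools, and the numbers were not taken as pairs in the main test. Their deviations from the genotype means correlated across genes at -0.0025, 0.074 and 0.16 for replicates 1, 2 and 3. Pairs with different numbers ran from -0.12 to 0.036. Replicates 2 and 3 thus correlated best with their own number, while GMR>Rh-1G69D replicate 1 correlated best with WT replicate 2 (0.027). With a replicate block 734 of all genes, 0 retinal glia genes and 5 of the further genes passed. With 3 libraries in each genotype, the intervals of *gcm*, *repo*, *moody*, *nrv2*, *htl* and *Eaat1* included 0, and a difference within those intervals is not excluded.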
